A study of Mus musculus with 60 samples.

Results

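Chemokines are small secreted proteins that steer leukocytes, and their receptors are the surface proteins that read them. The set described here holds 35 mouse genes of the 54232 gene IDs in the count table. They were listed by gene symbol, with earlier results of these data known. The list holds 14 ligands of the CC class, 9 of the CXC class, Cx3cl1 of the CX3C class, 8 signalling receptors and 3 atypical receptors. Atypical receptors bind chemokines without the usual signal and mostly clear or carry them. Each of the 35 had its own gene ID and at least 1 count in the series.

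Poly(A) RNA was measured in mouse liver and in subcutaneous and visceral adipose tissue. The mice had eaten normal chow (11% fat) or a Western diet (42% fat) for 12 weeks. On each diet, groups also differed in NaKtide, a short stretch of the sodium pump that keeps the pump from signalling through the kinase Src. Its expression in transgenic mice was switched on with 300 mg/kg doxycycline in the feed. Tissue, diet and NaKtide make 12 groups with 5 libraries each, 60 in all. Whether mice without NaKtide carried the transgene or ate doxycycline, whether the same mice gave the 3 tissues, and the strain, sex, age, transgene promoter and sampled fat pads are not stated in the labels used here, so the groups are called control diet, control diet with NaKtide, Western diet and Western diet with NaKtide. The series title speaks of adipocytes, and NaKtide's own transcript was not analysed here. The design counts 5 mice per group, so p-values measure the spread between these mice as far as each library is a separate mouse.

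In fat, macrophages and other leukocytes enter from the blood as the tissue expands, and monocytes follow Ccl2 and its relatives through the receptor Ccr2. Neutrophils follow Cxcl1, Cxcl2 and Cxcl5 through Cxcr2, and T cells and natural killer cells follow the interferon-induced ligands Cxcl9 and Cxcl10 through Cxcr3. Cxcl12 holds leukocytes and progenitor cells through Cxcr4, while Ccl19 draws dendritic cells and lymphocytes through Ccr7. The atypical receptors Ackr1, Ackr2 and Ackr3 each bind some of these ligands on endothelial and other stromal cells.

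Many of these genes lie side by side. On the GRCm38 build, Ccl2, Ccl7, Ccl11 and Ccl8 lie on chromosome 11 from 82035571 to 82116799, and Ccl5, Ccl9, Ccl6, Ccl3 and Ccl4 lie on the same chromosome from 83525778 to 83664683. Cxcl9 and Cxcl10 lie together on chromosome 5 from 92321347 to 92348889, and Cxcl5, Cxcl1 and Cxcl2 lie on that chromosome from 90759360 to 90905938. Ccr1, Ccr3 and Ccr2 lie on chromosome 9 from 123962124 to 124113557. The promoters below belong to Cxcl10, which was called in visceral fat, to its neighbour Cxcl9, which was not, and to Cxcl1 and Ccl8, which were called there. Each is the 250 bases before the start of the RefSeq gene on GRCm38.p6, 5′ to 3′ on the gene's strand: chr5:92348890-92349139, minus strand, for Cxcl10; chr5:92328080-92328329, minus strand, for Cxcl9; chr5:90890995-90891244, plus strand, for Cxcl1; and chr11:82114935-82115184, plus strand, for Ccl8. Capitals mark matches to the NF-kB consensus or to the interferon-response (ISRE) core, GAAA and GAAA parted by any 2 bases, on either strand.
Cxcl10: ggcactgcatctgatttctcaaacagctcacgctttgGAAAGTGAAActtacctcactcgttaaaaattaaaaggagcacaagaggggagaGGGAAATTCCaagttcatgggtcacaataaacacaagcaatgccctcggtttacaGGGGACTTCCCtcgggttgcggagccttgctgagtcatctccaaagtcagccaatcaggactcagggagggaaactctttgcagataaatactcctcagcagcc
Cxcl9: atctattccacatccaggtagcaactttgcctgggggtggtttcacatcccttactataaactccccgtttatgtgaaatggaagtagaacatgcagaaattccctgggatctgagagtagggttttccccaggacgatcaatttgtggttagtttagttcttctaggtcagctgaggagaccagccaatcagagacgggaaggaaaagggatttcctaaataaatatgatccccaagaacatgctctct
Cxcl1: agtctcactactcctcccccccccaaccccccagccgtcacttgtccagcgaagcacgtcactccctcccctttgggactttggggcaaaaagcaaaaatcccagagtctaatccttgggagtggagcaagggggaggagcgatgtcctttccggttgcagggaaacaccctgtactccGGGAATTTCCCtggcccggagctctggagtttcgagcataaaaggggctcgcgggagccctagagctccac
Ccl8: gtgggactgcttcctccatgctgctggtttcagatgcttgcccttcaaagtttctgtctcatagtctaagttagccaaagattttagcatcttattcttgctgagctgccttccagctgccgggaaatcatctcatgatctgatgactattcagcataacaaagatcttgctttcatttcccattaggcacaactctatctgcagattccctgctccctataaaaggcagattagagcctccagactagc
The Cxcl10 window holds an ISRE core starting 213 bases before the gene and NF-kB matches starting 159, 104 and 103 bases before it, the last 2 overlapping. Cxcl1 holds overlapping NF-kB matches starting 71 and 70 bases before the gene. Cxcl9 and Ccl8 hold neither motif in this window. RefSeq windows were found for 26 of the 35 genes, 27 windows in all, and the Ccl2 and Ccl7 promoters were not used here. The NF-kB consensus was in 7 of the 27 windows and in 7.25% of all 32841 windows of that length. The ISRE core was in 3 of the 27 and in 2.98% of all. The GAS motif TTCNNNGAA, bound by STAT proteins, was in 2 of the 27 and in 7.02% of all, and TATAAA was in 8 of the 27 and in 12.4% of all, both strands again searched. A match describes letters, not binding.

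Libraries held 3.18 to 9.78 M counts (mega-counts), with a median of 6.41 M. Several stood apart by transcripts of other tissues, summed over marker lists in CPM (counts scaled to a common library depth). In 8 visceral libraries, control diet replicates 3, 4 and 5, control diet with NaKtide replicate 1, Western diet replicate 1 and Western diet with NaKtide replicates 2, 3 and 5, genes of the male reproductive tract summed to more than 500 CPM, up to 46000. The 5 adipocyte markers were present in all fat groups, but summed to 213 CPM in visceral control replicate 5 against 3170 to 12100 in the other visceral libraries. Subcutaneous libraries of the control diet held 6300 to 47700 CPM of skeletal muscle genes against 18.9 to 168 on the Western diet, and control replicate 1 and Western replicate 2 held 317 and 288 CPM of B cell and lymph node genes. Mesothelium markers, typical of visceral fat, summed to 76.4 CPM in subcutaneous Western diet with NaKtide replicate 1 and to 3.6 CPM in visceral Western diet with NaKtide replicate 1, against 32.1 or more in the other visceral libraries. Male tract genes summed to 246, 33.6 and 292 CPM in replicates 1, 2 and 4 of that subcutaneous group. Liver control replicates 2 and 4 held 284 and 528 CPM of muscle genes, and hepatocyte markers summed to 27200 CPM or more in every liver library. Among the subcutaneous libraries with NaKtide, control diet replicate 2 held 202000 CPM of muscle genes with 2670 CPM of adipocyte markers, against 7070 or more in the other subcutaneous libraries.

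Levels can be compared between genes only per transcript length, in the deposited FPKM (fragments scaled to transcript length and library depth). In liver of the control diet Ccl9, a ligand of Ccr1 made by myeloid cells, was highest at a mean of 33.3 FPKM, followed by Cxcl12 at 24.9 FPKM, and 12 of the 35 genes had a mean above 1 FPKM. Subcutaneous fat of the control diet had 19 genes above 1 FPKM, led by the eosinophil chemoattractant Ccl11 at 38.2 FPKM, Ccl6 at 37.7, Ccl8 at 34.2 and Cxcl14 at 32.4. Visceral fat had 17 genes above 1 FPKM on the control diet, 25 with NaKtide added, 27 on the Western diet and 18 on the Western diet with NaKtide. The highest group means of the series were those of Ccl6 at 90.5, Ccl2 at 69.4 and Ccl7 at 66.2 FPKM, all in visceral fat of the Western diet. On the control diet without NaKtide the same 3 genes stood at 15.1, 1.41 and 2.06 FPKM in that depot. Cxcl5 was nearly silent, with 2 counts over the 20 liver libraries, 4 over the visceral ones and 0 over the subcutaneous ones.

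**Figure D1:**
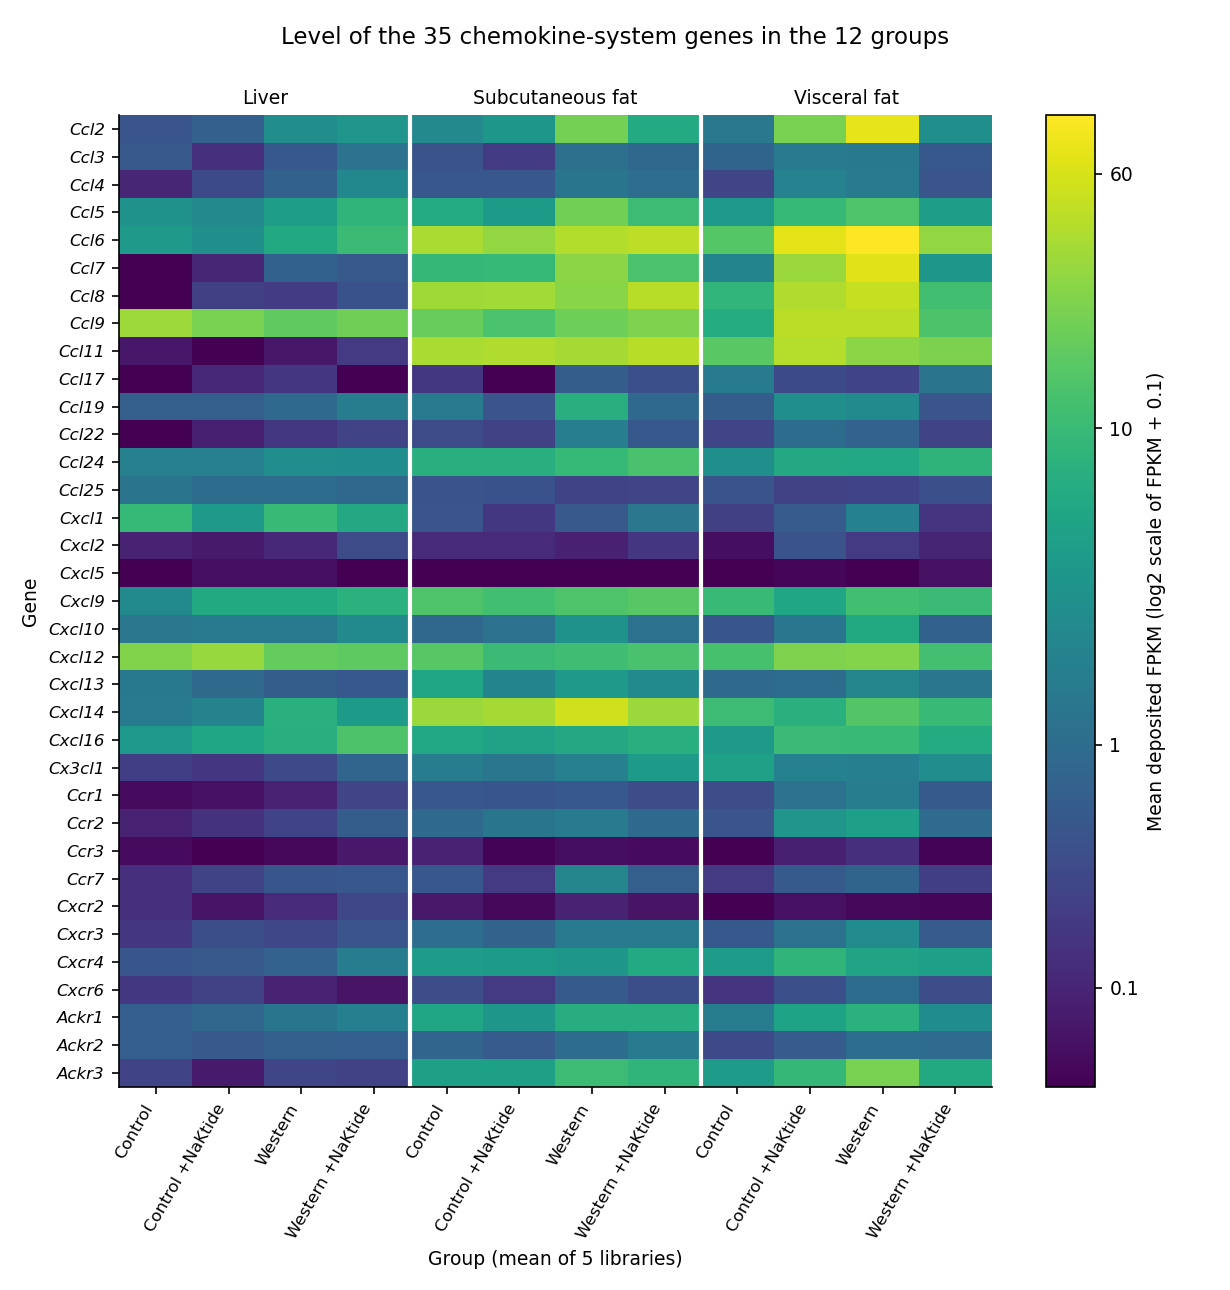
Mean deposited FPKM of the 35 genes (rows) in the 12 groups (columns, 5 libraries each), coloured on a log2 scale of FPKM + 0.1. Ccl2, Ccl6 and Ccl7 reach 69.4, 90.5 and 66.2 FPKM in visceral fat of the Western diet.

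By the test given below, the Western diet without NaKtide called 17 of 29 tested genes in visceral fat (24.9% of all genes). It called 3 of 27 in subcutaneous fat (5.61%) and 4 of 13 in liver (8.44%). Liver was not tested against fat, and a test of the depot difference in the diet response called Ccr2 alone. What follows is visceral fat. On the Western diet without NaKtide mean Ccl2 was 102 ± 35.3 CPM against 2.07 ± 1.46 CPM on the control diet (SD, n = 5), and mean Ccr2, its receptor, was 39.6 ± 8.74 against 4.35 ± 3.41 CPM. Ccl2, Ccl7 and Ccl8, Ccl6 and Ccl9, Cxcl10, Cxcl1, 3 receptors and all 3 atypical receptors were among those that rose. With NaKtide on the Western diet Ccl2 averaged 4.19 ± 3.56 CPM and Ccr2 8.52 ± 5.23 CPM. On the control diet the order was the opposite: Ccl2 averaged 32.9 ± 14.5 CPM and Ccr2 29.3 ± 10.9 CPM with NaKtide.

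A gene is called where edgeR's quasi-likelihood test gave a Benjamini-Hochberg adjusted p under 0.05 over all genes of the fit. Of the 35 genes 29 passed the low-count filter in visceral fat, and a gene can pass it through the group where it is high. The Western diet called 17 of these 29, all higher, where 24.9% of all 17235 genes were called and 10.5% were called higher. NaKtide on the Western diet called 12, all lower, where 13.2% of all genes were called and 6.95% were called lower. NaKtide on the control diet called 11, all higher, where 7.15% of all genes were called and 5.26% were called higher. The Western diet under NaKtide called 5, all lower, where 4.82% of all genes were called and 3.49% were called lower. The interaction, which asks whether the NaKtide difference depended on diet, called 18 lower and 1 higher, where 32.2% of all genes were called.

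Leaving out single libraries moved these counts. Without Western replicate 3 the Western diet called 1570 genes in place of 4287, while the members called over all single omissions ranged from 15 to 21. For NaKtide on the Western diet all genes ranged from 1031 without Western replicate 3 to 3770 without Western replicate 2, and the members from 9 to 12. For NaKtide on the control diet all genes ranged from 628 without control diet with NaKtide replicate 2 to 3115 without replicate 1, and the members from 7 to 16. Under NaKtide the Western diet called 389 genes and 2 members without control diet with NaKtide replicate 2.

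Single libraries were also compared for separation. In 17 of the 29 all 5 Western libraries lay above all 5 control libraries (8.02% of all genes), in 15 the NaKtide libraries lay below the others on the Western diet (7.58%), in 15 they lay above them on the control diet (5.95%), and in 10 the Western libraries lay below the control ones under NaKtide (5.88%). Ccl25 alone separated the other way, with 3.81 to 6.03 CPM on the control diet above 2.02 to 3.28 on the Western diet (4.23% of all genes lay lower in this way) and above 1.69 to 3.66 on the control diet with NaKtide (2.05%). The median log2 fold change of the 29 was 1.9 for the Western diet, -1.52 for NaKtide on it, 1.35 for NaKtide on the control diet and -0.965 for the Western diet under NaKtide. Over all genes those medians were -0.217, 0.0277, -0.23 and 0.0374. These contrasts share libraries, each group entering 2 of them, so they are not independent of each other.

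**Figure D2:**
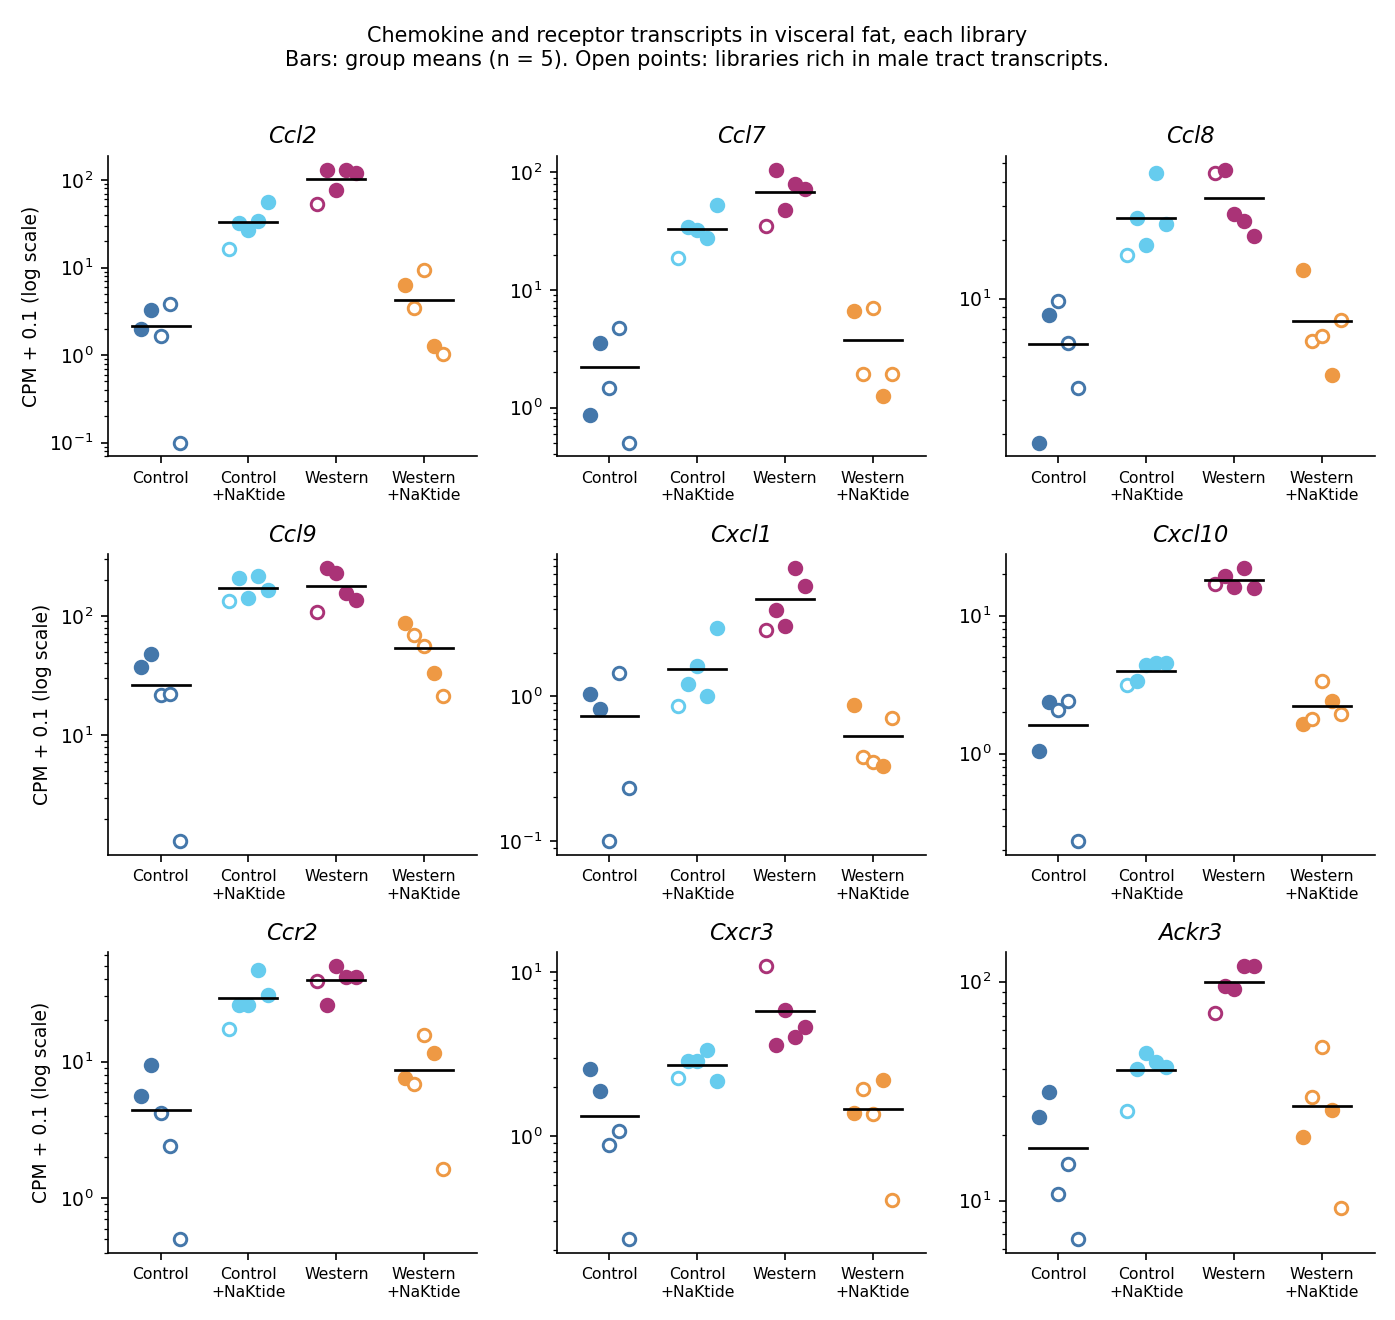
CPM + 0.1 (log axis) of 9 genes in each of the 20 visceral libraries, with bars at group means (n = 5) and open points for the 8 libraries rich in male tract transcripts. Ccl2 lies at 52.9 to 131.3 CPM in the Western libraries and at 0 to 3.69 CPM in the control libraries, where closed and open points are both low.

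Ccl2 and Ccl7, monocyte attractants of the first chromosome 11 cluster, changed by the widest margins. Ccl2 measured 1.89, 3.22, 1.57, 3.69 and 0 CPM on the control diet and 52.9, 129.7, 76.1, 131 and 119 CPM on the Western diet. With NaKtide, Ccl2 measured 16.2, 31.8, 26.8, 33.9 and 55.8 CPM on the control diet and 6.17, 3.38, 9.31, 1.16 and 0.917 CPM on the Western diet. No Western library came within the control range, and no library of the Western diet with NaKtide came within the Western range. Ccl2 rose by 5.61 ± 0.773 (adjusted p = 0.000226) on the Western diet, as log2 fold change ± SE, and fell by 4.56 ± 0.728 (adjusted p = 0.000947) with NaKtide on that diet. On the control diet it rose with NaKtide by 3.99 ± 0.723 (adjusted p = 0.00242), and under NaKtide it fell with the Western diet by 2.93 ± 0.68 (adjusted p = 0.0179); that last call ended without control diet with NaKtide replicate 5 (adjusted p = 0.0529) or Western diet with NaKtide replicate 2 (0.0595) or 4 (0.0514). Ccl7, which shares Ccr2 as a receptor, followed the same order. Ccl7 measured 0.755, 3.45, 1.37, 4.65 and 0.402 CPM on the control diet and 34.99, 106, 48.2, 79.6 and 72.8 CPM on the Western diet. With NaKtide, Ccl7 measured 18.7, 34.2, 32.0, 27.4 and 52.7 CPM on the control diet and 6.55, 1.83, 6.92, 1.16 and 1.83 CPM on the Western diet. It rose by 4.99 ± 0.659 (adjusted p = 0.000175) on the Western diet and fell by 4.18 ± 0.629 (adjusted p = 0.000678) with NaKtide on it. Ccl7 also rose by 3.95 ± 0.631 (adjusted p = 0.00109) with NaKtide on the control diet and fell by 3.13 ± 0.603 (adjusted p = 0.00597) with the Western diet under NaKtide.

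Ccl8 lies in the same cluster and attracts monocytes and T cells. Ccl8 measured 1.70, 8.10, 9.60, 5.82 and 3.35 CPM on the control diet and 44.7, 46.3, 27.3, 25.2 and 20.9 CPM on the Western diet. With NaKtide, Ccl8 measured 16.8, 26.0, 18.9, 44.4 and 24.3 CPM on the control diet and 14.0, 5.92, 6.29, 3.94 and 7.64 CPM on the Western diet. The NaKtide libraries lay below every Western library on the Western diet and above every control library on the control diet. Ccl8 rose by 2.52 ± 0.443 (adjusted p = 0.00121) on the Western diet, fell by 2.11 ± 0.436 (adjusted p = 0.00531) with NaKtide on it, rose by 2.19 ± 0.438 (adjusted p = 0.00475) with NaKtide on the control diet, and fell by 1.78 ± 0.432 (adjusted p = 0.022) with the Western diet under NaKtide. The last of these calls ended without control diet with NaKtide replicate 2 (adjusted p = 0.0628) or 4 (0.0721) or Western diet with NaKtide replicate 2 (0.0704) or 4 (0.0641). Ccl11, which lies between Ccl7 and Ccl8 on the chromosome, was not called in any of these contrasts, with means of 22.1 ± 19.97 CPM on the control diet, 58.5 ± 14.4 with NaKtide added, 38.6 ± 11.1 on the Western diet and 32.8 ± 17.5 on the Western diet with NaKtide.

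Ccl6 and Ccl9 are rodent ligands of Ccr1 made by macrophages and other myeloid cells. Ccl9 measured 37.6, 47.8, 21.6, 22.3 and 1.21 CPM on the control diet and 108, 253, 231, 157 and 137 CPM on the Western diet. With NaKtide, Ccl9 measured 133, 209.6, 143, 215 and 166 CPM on the control diet and 87.6, 69.0, 56.1, 32.9 and 21.4 CPM on the Western diet. Control replicate 5, the library poor in adipocyte markers, was far below the other control libraries. Ccl9 rose by 2.76 ± 0.59 (adjusted p = 0.00455) on the Western diet and by 2.73 ± 0.589 (adjusted p = 0.00798) with NaKtide on the control diet. With NaKtide on the Western diet its difference of -1.73 ± 0.567 (adjusted p = 0.0513) was not called, although the groups did not overlap. Ccl6 measured 58.7, 63.1, 30.2, 20.4 and 1.88 CPM on the control diet and 142, 288, 265, 193 and 158 CPM on the Western diet. With NaKtide, Ccl6 measured 111, 160.3, 124, 195 and 182 CPM on the control diet and 103, 94.1, 83.2, 45.2 and 22.6 CPM on the Western diet. All 5 Western libraries were above all 5 control libraries here too. Ccl6 rose by 2.58 ± 0.597 (adjusted p = 0.00753) on the Western diet and by 2.15 ± 0.588 (adjusted p = 0.0317) with NaKtide on the control diet, and its difference with NaKtide on the Western diet was -1.58 ± 0.576 (adjusted p = 0.071). The Ccl6 call on the control diet ended without control replicate 3 (adjusted p = 0.084) or 4 (0.0841) or control diet with NaKtide replicate 2 (0.0833), 3 (0.0505), 4 (0.0762) or 5 (0.0701).

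Ccl4 and Ccl5 recruit T cells and macrophages. Ccl5 measured 6.42, 3.57, 3.72, 6.40 and 2.68 CPM on the control diet and 34.9, 18.5, 11.0, 11.6 and 8.99 CPM on the Western diet. With NaKtide, Ccl5 measured 11.0, 12.7, 13.1, 13.8 and 7.55 CPM on the control diet and 3.598, 5.63, 4.53, 8.58 and 4.59 CPM on the Western diet. Western replicate 1 held the highest Ccl5. It rose by 1.90 ± 0.377 (adjusted p = 0.0029) on the Western diet and fell by 1.66 ± 0.374 (adjusted p = 0.00874) with NaKtide on it. On the control diet Ccl5 rose with NaKtide by 1.35 ± 0.372 (adjusted p = 0.0328), a call that ended without control replicate 2 (adjusted p = 0.0516) or 3 (0.0873) or control diet with NaKtide replicate 2 (0.099), 3 (0.0629) or 4 (0.071). Ccl4 measured 0.189, 0.238, 0.196, 0.582 and 0.134 CPM on the control diet and 1.57, 1.13, 0.989, 1.25 and 1.59 CPM on the Western diet. With NaKtide, Ccl4 measured 1.77, 1.76, 1.54, 1.299 and 1.69 CPM on the control diet and 0.386, 0.282, 0.126, 0.464 and 0.917 CPM on the Western diet. These were low counts, but the groups of each diet did not overlap. Ccl4 rose by 2.25 ± 0.427 (adjusted p = 0.00217) on the Western diet, rose by 2.55 ± 0.429 (adjusted p = 0.00155) with NaKtide on the control diet, and fell by 1.67 ± 0.415 (adjusted p = 0.0151) with NaKtide on the Western diet, the last call ending without Western diet with NaKtide replicate 2 (adjusted p = 0.0565). Under NaKtide it fell with the Western diet by 1.97 ± 0.417 (adjusted p = 0.00994), a call that ended without control diet with NaKtide replicate 2 (0.0546) or Western diet with NaKtide replicate 2 (0.052).

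Ccl19, the ligand of Ccr7, completed the CC genes that were called. Ccl19 measured 0.567, 1.07, 0.588, 0.9696 and 0.402 CPM on the control diet and 2.17, 4.76, 2.31, 2.40 and 2.22 CPM on the Western diet. With NaKtide, Ccl19 measured 2.78, 3.76, 2.77, 2.86 and 3.64 CPM on the control diet and 1.03, 1.41, 0.126, 0.232 and 0 CPM on the Western diet. All 4 pairs of groups separated without overlap. Ccl19 rose by 1.91 ± 0.559 (adjusted p = 0.0246) on the Western diet and by 2.11 ± 0.562 (adjusted p = 0.0281) with NaKtide on the control diet, and it fell by 2.18 ± 0.567 (adjusted p = 0.0188) with NaKtide on the Western diet and by 2.37 ± 0.57 (adjusted p = 0.0212) with the Western diet under NaKtide. Each of these calls ended without some library: the first without control replicate 3 (adjusted p = 0.0673) or Western replicate 3 (0.054), 4 (0.0533) or 5 (0.0506), and the third without Western diet with NaKtide replicate 4 (0.0589). The second ended without 8 of its 10 libraries, control replicates 1, 3, 4 and 5 and control diet with NaKtide replicates 2 to 5 (up to 0.0968), and the last without control diet with NaKtide replicate 2 (0.0794), 4 (0.0508) or 5 (0.0568) or Western diet with NaKtide replicate 4 (0.073). Counts of Ccl19 are uncertain, since its copies Ccl19-ps1 and Ccl19-ps3 held 16 and 259 counts of their own over the series and reads can be shared between copies.

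Among the CXC ligands Cxcl10, an interferon-induced ligand of Cxcr3, rose most on the Western diet. Cxcl10 measured 0.944, 2.26, 1.96, 2.33 and 0.134 CPM on the control diet and 16.9, 19.3, 15.9, 22.1 and 15.7 CPM on the Western diet. With NaKtide, Cxcl10 measured 3.03, 3.26, 4.31, 4.42 and 4.42 CPM on the control diet and 1.54, 1.69, 3.27, 2.32 and 1.83 CPM on the Western diet. The 5 Western libraries lay above the other 15. Cxcl10 rose by 3.55 ± 0.472 (adjusted p = 0.00018) on the Western diet and fell by 3.06 ± 0.461 (adjusted p = 0.000678) with NaKtide on it. On the control diet the NaKtide libraries lay above the control ones, but the difference of 1.34 ± 0.442 (adjusted p = 0.0716) was not called. Cxcl9, the neighbour of Cxcl10 on chromosome 5 and a ligand of the same receptor, was not called, with means of 38.7 ± 30.9 CPM on the control diet, 21.4 ± 7.18 with NaKtide, 43.6 ± 21.3 on the Western diet and 40.1 ± 16.0 on the Western diet with NaKtide. Its log2 difference for the Western diet was 0.17 ± 0.607 (adjusted p = 0.843).

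Cxcl1 attracts neutrophils. Cxcl1 measured 0.944, 0.715, 0, 1.36 and 0.134 CPM on the control diet and 2.78, 3.88, 2.97, 7.68 and 5.71 CPM on the Western diet. With NaKtide, Cxcl1 measured 0.758, 1.13, 1.54, 0.910 and 2.86 CPM on the control diet and 0.771, 0.282, 0.252, 0.232 and 0.611 CPM on the Western diet. The Western libraries were above the control libraries and above those of the Western diet with NaKtide, with no overlap. Cxcl1 rose by 2.85 ± 0.643 (adjusted p = 0.00647) on the Western diet and fell by 3.38 ± 0.67 (adjusted p = 0.00413) with NaKtide on it, while NaKtide on the control diet gave 1.19 ± 0.632 (adjusted p = 0.226), which was not called. Cxcl16 is a membrane-bound ligand of Cxcr6. Cxcl16 measured 13.2, 25.0, 11.8, 18.8 and 6.97 CPM on the control diet and 28.5, 48.0, 50.9, 29.2 and 34.1 CPM on the Western diet. With NaKtide, Cxcl16 measured 33.0, 44.1, 40.5, 46.5 and 31.0 CPM on the control diet and 20.1, 26.5, 22.9, 27.6 and 29.4 CPM on the Western diet. It rose by 1.33 ± 0.273 (adjusted p = 0.00363) on the Western diet and by 1.36 ± 0.274 (adjusted p = 0.00481) with NaKtide on the control diet, and with NaKtide on the Western diet its value of -0.59 ± 0.269 (adjusted p = 0.132) was not called.

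Of the receptors Ccr2, which marks blood-derived monocytes, moved with its ligands. Ccr2 measured 5.48, 9.41, 4.12, 2.33 and 0.402 CPM on the control diet and 38.6, 25.9, 50.0, 41.9 and 41.6 CPM on the Western diet. With NaKtide, Ccr2 measured 17.3, 25.7, 25.8, 46.8 and 30.8 CPM on the control diet and 7.45, 6.76, 15.5, 11.4 and 1.53 CPM on the Western diet. The NaKtide libraries were below every Western library on the Western diet and above every control library on the control diet. Ccr2 rose by 3.18 ± 0.601 (adjusted p = 0.00212) on the Western diet and by 2.74 ± 0.592 (adjusted p = 0.00798) with NaKtide on the control diet. It fell by 2.21 ± 0.576 (adjusted p = 0.0191) with NaKtide on the Western diet, a call that ended without Western replicate 3 (adjusted p = 0.0513) or Western diet with NaKtide replicate 2 (0.0531). Ccr1 reads Ccl5, Ccl6 and Ccl9. Ccr1 measured 1.32, 2.26, 1.57, 1.36 and 0.670 CPM on the control diet and 6.40, 5.76, 8.03, 5.38 and 4.34 CPM on the Western diet. With NaKtide, Ccr1 measured 2.90, 4.14, 3.23, 6.37 and 4.55 CPM on the control diet and 2.44, 2.11, 4.28, 1.16 and 0.611 CPM on the Western diet. Ccr1 rose by 2.04 ± 0.419 (adjusted p = 0.00362) on the Western diet. It rose by 1.55 ± 0.415 (adjusted p = 0.0289) with NaKtide on the control diet and fell by 1.46 ± 0.409 (adjusted p = 0.027) with NaKtide on the Western diet. Both of these calls lay near the threshold and ended when any of several libraries was left out. The first ended without control replicate 1 (adjusted p = 0.0501), 3 (0.0681) or 4 (0.07) or control diet with NaKtide replicate 2 (0.0811), 4 (0.0908) or 5 (0.0629). The second ended without Western replicate 1 (0.0577), 3 (0.0832) or 4 (0.0557) or Western diet with NaKtide replicate 2 (0.0639), 4 (0.0724) or 5 (0.0533).

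Cxcr3 is carried by activated T cells and natural killer cells. Cxcr3 measured 2.46, 1.79, 0.784, 0.9696 and 0.134 CPM on the control diet and 10.9, 3.51, 5.83, 3.94 and 4.55 CPM on the Western diet. With NaKtide, Cxcr3 measured 2.15, 2.76, 2.77, 3.25 and 2.08 CPM on the control diet and 1.29, 1.83, 1.26, 2.09 and 0.306 CPM on the Western diet. Western replicate 1 was highest. Cxcr3 rose by 2.21 ± 0.538 (adjusted p = 0.0104) on the Western diet and fell by 2.05 ± 0.535 (adjusted p = 0.0191) with NaKtide on it, the second call ending without Western replicate 1 (adjusted p = 0.0658). Cxcr4 and Ccr7 were not called in any of the 5 contrasts, with group means of 9.37 to 19.7 CPM for Cxcr4 and 0.531 to 1.99 CPM for Ccr7.

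All 3 atypical receptors rose with the Western diet. Ackr3 scavenges Cxcl12. Ackr3 measured 24.0, 31.1, 10.6, 14.5 and 6.56 CPM on the control diet and 72.2, 95.2, 92.5, 118 and 118 CPM on the Western diet. With NaKtide, Ackr3 measured 25.6, 39.6, 47.2, 42.8 and 40.9 CPM on the control diet and 19.4, 29.7, 50.2, 25.8 and 9.17 CPM on the Western diet. The Western libraries lay above the other 15. Ackr3 rose by 2.51 ± 0.413 (adjusted p = 0.000721) on the Western diet and fell by 1.88 ± 0.403 (adjusted p = 0.0067) with NaKtide on it, and NaKtide on the control diet gave 1.17 ± 0.398 (adjusted p = 0.08), not called. Ackr1 carries chemokines across venules. Ackr1 measured 6.23, 6.19, 2.35, 0.582 and 0.134 CPM on the control diet and 13.2, 15.0, 10.6, 16.5 and 13.9 CPM on the Western diet. With NaKtide, Ackr1 measured 6.44, 11.0, 8.46, 13.1 and 6.38 CPM on the control diet and 7.45, 1.97, 5.79, 8.35 and 0.306 CPM on the Western diet. Ackr1 rose by 2.15 ± 0.752 (adjusted p = 0.0454) on the Western diet, a call that ended without control replicate 3 (adjusted p = 0.0985) or 4 (0.1) or without any single Western library (0.0577 to 0.0938). Ackr2 degrades inflammatory CC ligands. Ackr2 measured 3.02, 1.79, 0.784, 0.776 and 0.536 CPM on the control diet and 3.62, 5.38, 4.18, 3.07 and 5.50 CPM on the Western diet. With NaKtide, Ackr2 measured 2.27, 1.504, 2.31, 3.90 and 2.60 CPM on the control diet and 5.65, 2.68, 6.42, 3.02 and 1.83 CPM on the Western diet. It rose by 1.65 ± 0.451 (adjusted p = 0.0189) on the Western diet, and the call ended without control replicate 3 (adjusted p = 0.0563) or 4 (0.0536) or Western replicate 5 (0.0544). Neither Ackr1 nor Ackr2 was called for NaKtide on either diet.

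The interaction was largest for Ccl2 and Ccl7, with -8.54 ± 1.03 for Ccl2 (log2 ± SE, adjusted p = 2.01e-05) and -8.13 ± 0.891 for Ccl7 (adjusted p = 9.53e-06). It also called 3 genes that no single contrast of the depot called. Ccl22, a ligand of Ccr4 from dendritic cells and macrophages, had an interaction of -2.93 ± 0.732 (adjusted p = 0.00761). Ccl22 measured 0.189, 1.43, 0.196, 1.36 and 1.47 CPM on the control diet and 3.14, 1.63, 3.63, 2.21 and 0.740 CPM on the Western diet. With NaKtide, Ccl22 measured 3.16, 2.76, 2.00, 4.55 and 2.34 CPM on the control diet and 0.771, 0.563, 1.13, 0.928 and 1.22 CPM on the Western diet. The NaKtide libraries were above the control ones on the control diet, and their mean was below the Western mean on the Western diet. Cxcl12, the ligand of Cxcr4, had an interaction of -2.01 ± 0.69 (adjusted p = 0.0337). Cxcl12 measured 252, 205, 127, 52.4 and 24.4 CPM on the control diet and 222, 169, 282, 319.9 and 335 CPM on the Western diet. With NaKtide, Cxcl12 measured 129.6, 221, 265, 332 and 306 CPM on the control diet and 199, 156, 101, 118 and 50.4 CPM on the Western diet. That call ended without 11 of the 20 libraries, control replicates 3 and 4, control diet with NaKtide replicates 2 to 5, Western replicates 3 to 5 and Western diet with NaKtide replicates 4 and 5 (adjusted p up to 0.063). Ccl25, a ligand of Ccr9 known from gut and thymus, had 1.33 ± 0.376 (adjusted p = 0.0147), the only called value above 0. Ccl25 measured 3.97, 3.81, 4.90, 4.07 and 6.03 CPM on the control diet and 3.14, 3.13, 2.31, 2.02 and 3.28 CPM on the Western diet. With NaKtide, Ccl25 measured 3.66, 2.88, 2.31, 1.69 and 2.73 CPM on the control diet and 3.86, 3.94, 2.39, 5.10 and 5.20 CPM on the Western diet. The Ackr1 interaction of -3.07 ± 1.04 (adjusted p = 0.0326) ended without 7 of the 20 libraries, control replicates 3 and 4, control diet with NaKtide replicates 2 and 4, Western replicates 4 and 5 and Western diet with NaKtide replicate 2 (adjusted p up to 0.0627).

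**Figure D3:**
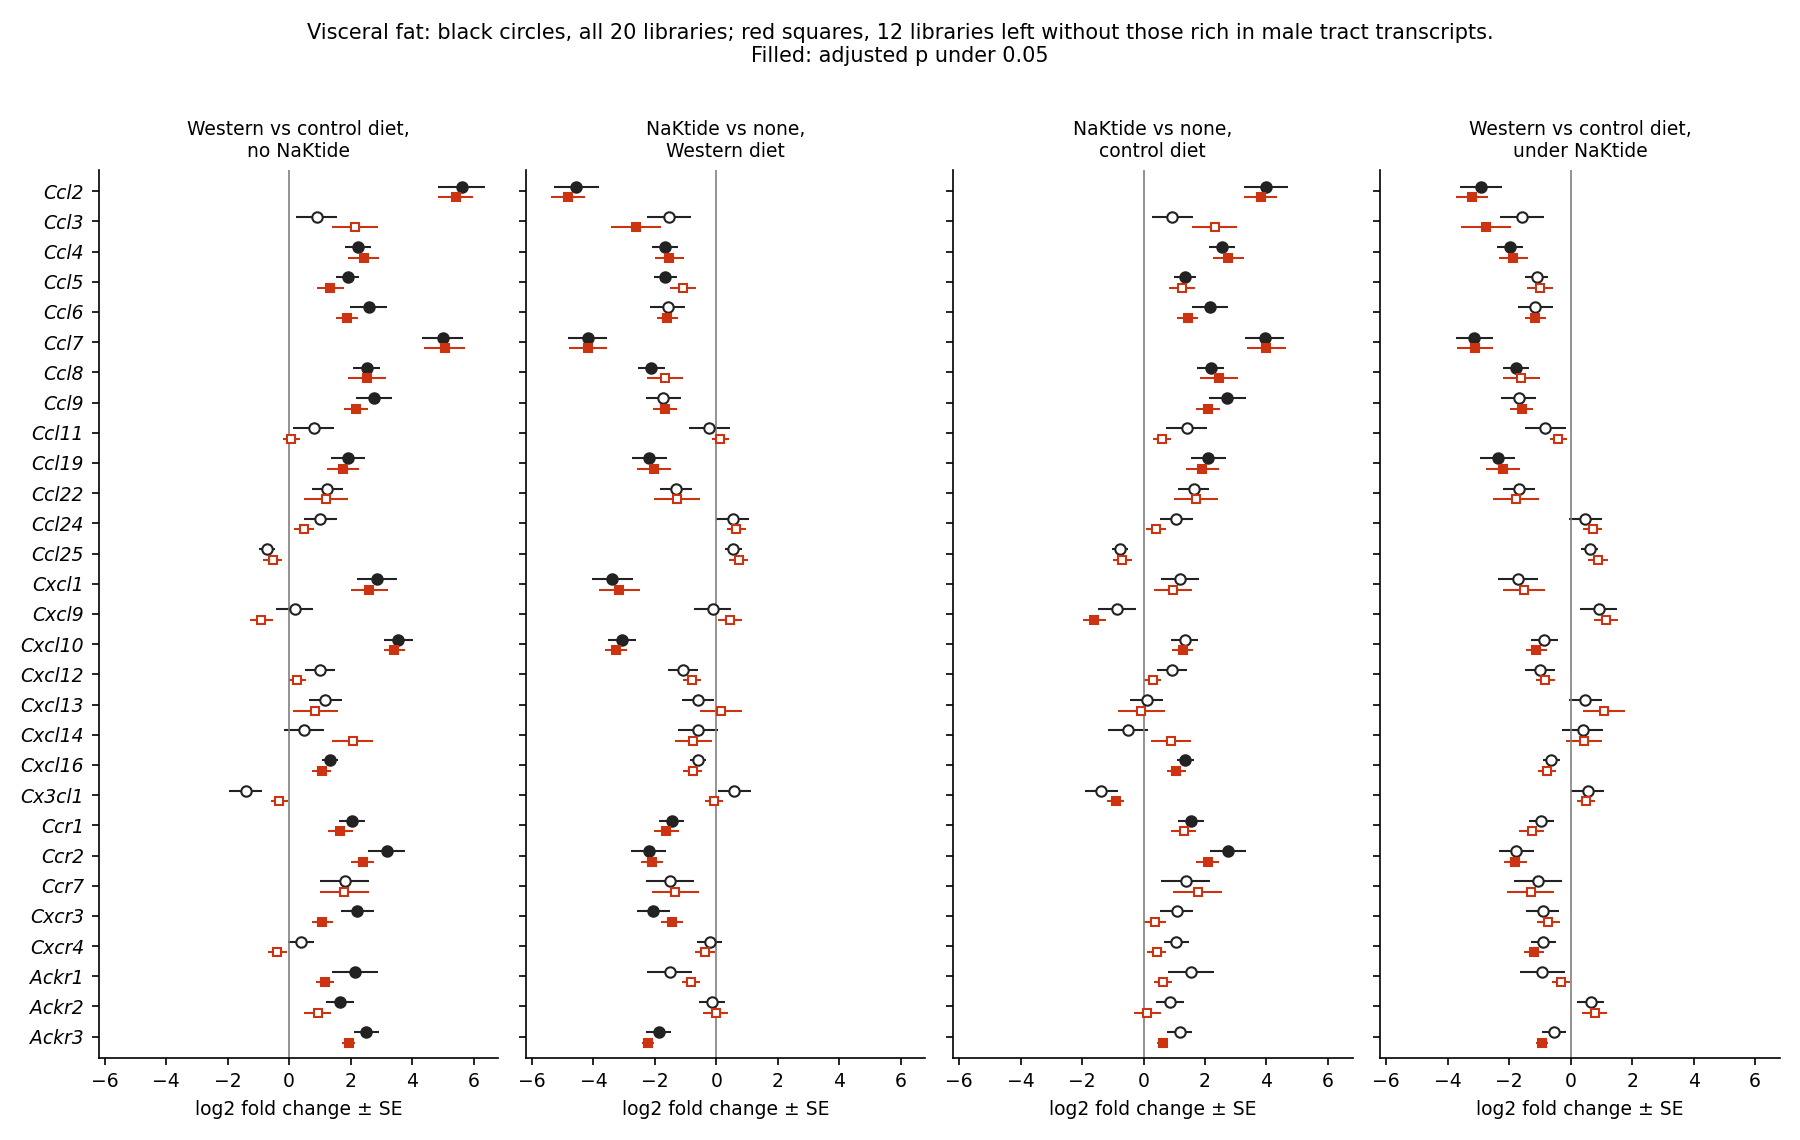
Log2 fold change ± SE of the 29 tested genes in visceral fat for the 4 pairwise contrasts, from all 20 libraries (black circles) and from the 12 left without those rich in male tract transcripts (red squares), filled where the adjusted p was under 0.05. Among the black circles Ccl2 and Ccl7 lie farthest from 0 in each panel, at 5.61 and 4.99 for the Western diet and at -4.56 and -4.18 for NaKtide on it.

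The remaining tested genes of visceral fat were called in no contrast. Ccl3 had group means of 0.538 to 1.5 CPM, Ccl24 of 4.77 to 13.9, Cxcl13 of 1.39 to 3.13, Cxcl14 of 17.3 to 34.2 and Cx3cl1 of 9.07 to 24.1 CPM. Cx3cl1, the ligand of Cx3cr1 on macrophages, was highest in control replicates 3, 4 and 5 at 28.4, 33.6 and 37.1 CPM and in Western diet with NaKtide replicate 5 at 35.5 CPM, all rich in male tract transcripts. The 6 genes under the filter held few counts per group of 5 libraries, in the order control diet, control diet with NaKtide, Western diet and Western diet with NaKtide: Cxcr6 had 13, 40, 108 and 31, Cxcl2 had 2, 46, 26 and 9, Ccl17 had 28, 9, 9 and 18, Ccr3 had 0, 13, 29 and 1, Cxcr2 had 0, 5, 3 and 2, and Cxcl5 had 0, 1, 0 and 3.

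Leaving out the 8 libraries rich in male tract transcripts, a choice made after seeing the data, left 2 libraries of the control diet, 4 of the control diet with NaKtide, 4 of the Western diet and 2 of the Western diet with NaKtide, and 31 of the 35 genes tested. The Western diet then called 16 higher (17.7% of all genes called), NaKtide on the Western diet 13 lower (21.6%), NaKtide on the control diet 12 higher and 2 lower (13.9%), the Western diet under NaKtide 11 lower (14.8%) and the interaction 19 lower and 2 higher (28.7%). Ccl2 had 5.42 ± 0.568 for the Western diet (log2 ± SE, adjusted p = 0.000196) and -4.82 ± 0.543 for NaKtide on it (adjusted p = 0.000167). Control replicates 1 and 2, with 469 and 27.5 CPM of such transcripts, had 1.89 and 3.22 CPM of Ccl2 against 1.57, 3.69 and 0 CPM in replicates 3, 4 and 5. In this smaller set Ccl5 (adjusted p = 0.0902) and Ccl8 (0.0629) lost their calls for NaKtide on the Western diet, and Ccl3, Ccl6 and Ccl9 gained one. Ackr2 lost its Western diet call (0.172), Ccl5 (0.0734) and Ccr1 (0.0553) lost theirs for NaKtide on the control diet, Ccl8 lost its call for the Western diet under NaKtide (0.0909), and Cxcl12 lost its interaction (0.0667). Without visceral Western diet with NaKtide replicate 1, the library poor in mesothelium markers, the Ackr1 call for the Western diet ended (0.0535) and no other visceral call did. Without the male tract libraries, Cxcl9 fell by 1.61 with NaKtide on the control diet (SE 0.375, adjusted p = 0.015), and Cx3cl1 fell by 0.90 (SE 0.277, adjusted p = 0.0499).

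Marker lists of leukocytes differed in how they followed these groups. The 6 macrophage markers summed to 105 to 495 CPM on the control diet, 1240 to 1900 with NaKtide added, 1180 to 2570 on the Western diet and 237 to 988 on the Western diet with NaKtide; 5 of the 6 were called higher for the Western diet, 5 lower for NaKtide on it and 5 higher for NaKtide on the control diet. The 5 neutrophil markers summed to 1.21 to 4.51, 22.6 to 43.7, 12.7 to 20.7 and 1.83 to 7.58 CPM in that order of groups, with Retnlg at 0 in the control diet with NaKtide. T cell markers summed to 6.42 to 9.29, 8.72 to 15.9, 14.1 to 43.9 and 4.37 to 9.97 CPM. Eosinophil markers summed to 0.804 to 8.57, 10.2 to 17.7, 8.67 to 13.4 and 1.83 to 12.5 CPM, with Siglecf and Epx at 0 on the control diet and on the Western diet with NaKtide, and Epx at 0 on the control diet with NaKtide. The sums of other leukocyte lists overlapped between all 4 groups. Lipid-associated macrophage markers summed to 91.5 to 682, 437 to 880, 221 to 1290 and 59.6 to 695 CPM. The sums of 682 and 695 CPM were those of control replicate 4 and Western diet with NaKtide replicate 5, both rich in male tract transcripts. Other libraries of these groups held 91.5 to 150 and 59.6 to 175 CPM. B cell and lymph node markers summed to 4.53 to 24, 10.6 to 18.9, 11 to 28.7 and 5.33 to 24.8 CPM. Monocyte markers summed to 84.3 to 515, 53.5 to 118, 89.5 to 146 and 56.1 to 287 CPM, dendritic cell markers to 16.3 to 53.6, 19.3 to 29.9, 24.3 to 38.4 and 20.8 to 27.5 CPM, and NK cell markers to 2.14 to 547, 3.89 to 25.9, 4.88 to 15.6 and 2.25 to 518 CPM. Libraries rich in male tract transcripts held the monocyte sums of 515, 297 and 287 CPM and the NK cell sums of 547, 97.5 and 518 CPM. Without Western diet with NaKtide replicate 5, that group held 56.1 to 88.4 CPM of monocyte markers, below the Western range. Control replicates 1 and 2 held 124 and 84.3 CPM. For the Western diet 2 of 4 monocyte markers, 2 of 5 dendritic cell markers and 0 of 2 tested NK cell markers were called higher, and none was called lower. Of all genes 10.5% were called higher for the Western diet, 6.95% lower for NaKtide on it and 5.26% higher for NaKtide on the control diet. These marker sums and calls are over all 20 libraries. The part of these cells in the chemokine values was not tested. In bulk tissue, fewer cells of a type and less RNA per cell cannot be told apart.

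Genes that work with the 35 were read from 4 lists: other ligands, other receptors, proteins that pass on or modify chemokine signals, and cytokines and transcription factors that switch chemokine genes on. For the Western diet in visceral fat 0 of 4 tested ligands rose and 1 fell, 7 of 17 signalling genes rose and 10 of 13 inducers rose. With NaKtide on the Western diet 0 of 4 ligands, 8 of 17 signalling genes and 5 of 13 inducers fell and none rose, and with NaKtide on the control diet 0, 6 and 5 rose and none fell. Under NaKtide the Western diet had 0, 4 and 2 lower and none higher. For the Western diet 24.9% of all genes were called and 10.5% were called higher. NaKtide called 6.95% of all genes lower on the Western diet and 5.26% higher on the control diet. Under NaKtide 3.49% were called lower for the Western diet. These values are over all 20 visceral libraries. Nfkb2, a subunit of NF-kB, averaged 80.6 ± 14.9 CPM on the Western diet and 25.2 ± 4.44 on the control diet, and Irf8, a transcription factor of myeloid cells, averaged 68.9 ± 10.3 and 14.9 ± 4.12 CPM (SD, n = 5). With NaKtide these fell to 24.4 ± 4.54 and 16.0 ± 4.35 CPM on the Western diet and rose to 59.0 ± 9.14 and 92.5 ± 21.7 CPM on the control diet. For the Western diet Nfkb2 rose by 1.68 ± 0.181 and Irf8 by 2.21 ± 0.239 (log2 ± SE, adjusted p = 6.79e-05 for both), and Rac2, a GTPase of leukocyte migration, rose by 2.44 ± 0.284 (adjusted p = 0.000106) and Relb by 1.73 ± 0.221 (adjusted p = 0.000149).

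In subcutaneous fat 27 of the 35 genes were tested, and the Western diet called 3, all higher, where 5.61% of all 15226 genes were called and 2.21% were called higher. They were Ccl2, Cxcl10 and Ackr3, each called in visceral fat as well. Without Western replicate 3 the count over all genes was 200 in place of 854, and 2 to 4 of the 27 were called over all single omissions. The median log2 fold change of the 27 was 0.263, against -0.0197 over all genes. Ccl2 measured 1.04, 9.63, 0.366, 4.33 and 0.410 CPM on the control diet and 20.6, 30.2, 46.5, 36.0 and 14.5 CPM on the Western diet. With NaKtide, Ccl2 measured 2.56, 5.14, 14.4, 0.973 and 0.994 CPM on the control diet and 17.4, 3.17, 12.3, 5.66 and 4.47 CPM on the Western diet. Every Western library lay above every control library. Ccl2 rose by 3.29 ± 0.801 (adjusted p = 0.0235) on the Western diet (log2 ± SE); the call ended without control replicate 1 (adjusted p = 0.0563), 3 (0.0622) or 5 (0.0655) or Western replicate 3 (0.0682) or 4 (0.0602). Cxcl10 measured 2.08, 2.68, 1.28, 2.76 and 2.87 CPM on the control diet and 7.62, 12.1, 11.8, 6.46 and 5.23 CPM on the Western diet. With NaKtide, Cxcl10 measured 3.32, 5.78, 4.62, 1.14 and 0.994 CPM on the control diet and 3.62, 3.66, 3.58, 2.43 and 2.66 CPM on the Western diet. Again the Western libraries were above the control ones with no overlap. Cxcl10 rose by 1.89 ± 0.389 (adjusted p = 0.013) and kept its call without each single library. Ackr3 measured 21.4, 20.3, 13.2, 20.5 and 19.1 CPM on the control diet and 42.5, 31.8, 50.6, 46.4 and 40.4 CPM on the Western diet. With NaKtide, Ackr3 measured 17.4, 18.6, 19.6, 16.2 and 22.5 CPM on the control diet and 45.7, 26.2, 35.8, 32.0 and 27.2 CPM on the Western diet. Ackr3 rose by 1.16 ± 0.17 (adjusted p = 0.00521), and it stayed called under all 17 alternatives run. Ccr2 separated too, at 7.57, 8.29, 6.40, 8.53 and 6.16 CPM on the control diet and 18.4, 8.94, 8.93, 10.8 and 15.3 CPM on the Western diet, but was not called at 0.75 ± 0.342 (adjusted p = 0.191). In all, 4 of the 27 separated upward, as did 5.64% of all genes.

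Without control replicate 1 and Western replicate 2, the libraries rich in B cell genes, Ackr3 remained called at 1.31 ± 0.186 (adjusted p = 0.0261), Cxcl10 had 1.71 with an adjusted p of 0.0597, and Ccl2 had 3.06 with an adjusted p of 0.0822. Western replicate 2 also held 32.3 CPM of Ccl19, 20.02 CPM of its receptor Ccr7, 16.4 CPM of Ccl22 and 74.9 CPM of Ccl5, against at most 1.46, 1.84, 3.09 and 17.8 CPM in the other Western libraries. Control replicate 1 was highest in its group for the B cell attractant Cxcl13 at 20.2 CPM, and for Ccl19 and Ccr7 at 5.94 and 4.75 CPM. Control replicate 2 was highest for Ccl6, Ccl7, Ccl8 and Ccl9, at 206, 32.4, 61.5 and 189.9 CPM. The macrophage markers summed to 326 to 1140 CPM on the control diet and 574 to 846 on the Western diet, and skeletal muscle genes separated the diets in all 10 libraries, so muscle content and diet cannot be told apart here.

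**Figure D4:**
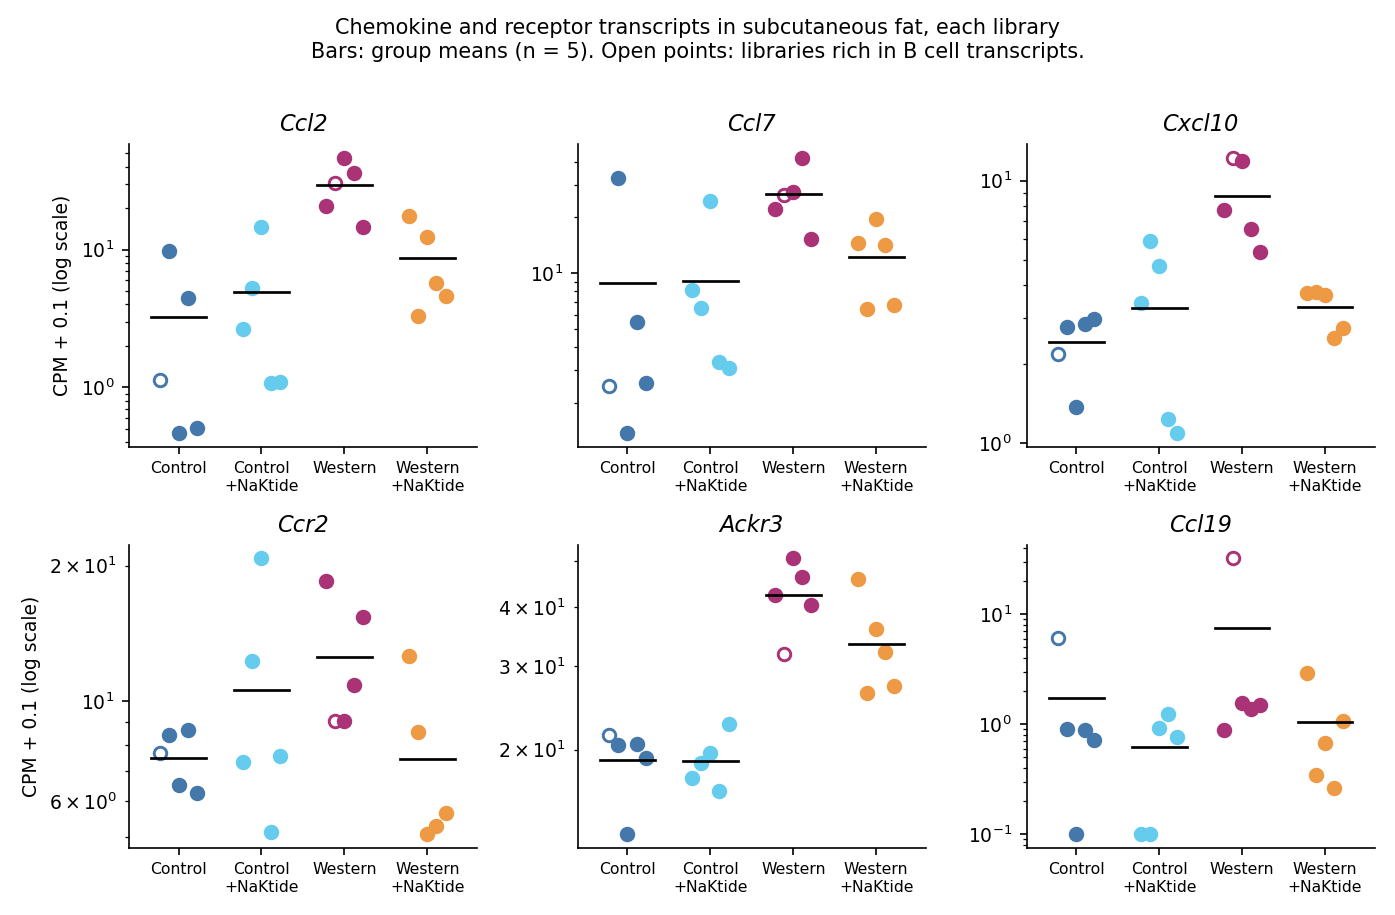
CPM + 0.1 (log axis) of Ccl2, Ccl7, Cxcl10, Ccr2, Ackr3 and Ccl19 in each of the 20 subcutaneous libraries, with bars at group means (n = 5) and open points for the libraries rich in B cell transcripts. Ackr3 lies at 31.8 to 50.6 CPM on the Western diet and at 13.2 to 21.4 CPM on the control diet.

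The other 4 contrasts of subcutaneous fat called 0 of the 27 genes with edgeR, as they called 0 of all 15226 genes (0%). Without adjustment 8 of the 27 had a p under 0.05 for NaKtide on the Western diet and 2 for NaKtide on the control diet. For the Western diet under NaKtide and the interaction there were 9 and 8. Over all 15226 genes these counts were 1873, 918, 3735 and 1712 in the same order. DESeq2 called 1, 0, 5 and 0 of the 27 genes and 194, 0, 1194 and 48 of all genes. Without control diet with NaKtide replicate 3, edgeR called 3 of the 27 and 1860 of all genes for the Western diet under NaKtide. In 6 of the 27 all 5 Western libraries lay above all 5 control libraries under NaKtide (2% of all genes). Without control diet with NaKtide replicate 2, the library richest in muscle genes, edgeR called 0 of the 27 in each of the 3 contrasts it enters, and 0, 4 and 35 of all genes for NaKtide on the control diet, the Western diet under NaKtide and the interaction. The smallest p for NaKtide on the Western diet belonged to Cxcl10 at -1.43 ± 0.372 (adjusted p = 0.167) and Cxcr4 at 0.80 ± 0.276 (adjusted p = 0.248). All 5 NaKtide libraries of that diet lay below all 5 Western libraries for Cxcl10, as in 2.38% of all genes. For NaKtide on the control diet they belonged to Cxcl12 at -0.56 ± 0.229 (adjusted p = 0.792) and Cxcl13 at -1.58 ± 0.745 (adjusted p = 0.816). For the Western diet under NaKtide, Ackr3 had 0.82 ± 0.171 (adjusted p = 0.0595) and Ackr2 had 1.29 ± 0.298 (adjusted p = 0.0595), and for the interaction Cxcl10 had -1.77 ± 0.553 (adjusted p = 0.284) and Ccr2 had -1.26 ± 0.485 (adjusted p = 0.339). Of the genes not called in this depot, Cxcl14, Ccl6, Ccl9, Ccl11, Cxcl9 and Cxcl12 had group means between 41.6 and 148.7 CPM. The 8 genes under the filter were Ccl3, Ccl4, Ccl17, Cxcl2, Cxcl5, Ccr3, Cxcr2 and Cxcr6, all at or below a group mean of 1.36 CPM. None of the 4 lists of working partners had a called gene for the Western diet in this depot.

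The depots were compared in a fit of all 40 fat libraries, in which 30 of the 35 genes were tested. On the control diet 8 were called lower and 1 higher in visceral fat. Over both directions that share, 30%, is near the 27.2% of all 17788 genes that were called. The directions differed, since the calls over all genes were 1303 lower and 3539 higher. The median log2 difference of the 30 was -0.911, against 0.133 over all genes. Cxcl14 was the only one of the 30 to separate without overlap (3.35% of all genes lay lower in this way), at 23.3 ± 18.1 CPM in visceral and 73.7 ± 20.5 CPM in subcutaneous fat (SD, n = 5), a log2 difference of -1.67 ± 0.559 (adjusted p = 0.0265). Lower in visceral fat were also Ccl7 at -2.13 ± 0.72 (adjusted p = 0.0279), Ccl8 at -1.99 ± 0.644 (adjusted p = 0.0225), Ccl9 at -1.48 ± 0.553 (adjusted p = 0.0437), Ccl24 at -1.32 ± 0.421 (adjusted p = 0.0211) and Cxcl13 at -2.58 ± 0.687 (adjusted p = 0.00901). Ackr1 had -1.69 ± 0.567 (adjusted p = 0.0266) and Ackr2 -1.29 ± 0.39 (adjusted p = 0.0163), and Cx3cl1 was higher at 1.44 ± 0.526 (adjusted p = 0.04). None of the 9 was called without the 8 libraries rich in male tract transcripts or in a fit of these 2 groups alone. Over all genes these gave 3 and 310 calls in place of 4842, and single omissions gave 1740 (visceral control replicate 5) to 6694 (visceral control replicate 2). Every one of the 9 calls ended without some single library. Without subcutaneous control replicate 2, Ccl7 had -0.62 (adjusted p = 0.5), Ccl8 -1.08 (0.198), Ccl9 -0.63 (0.389) and Ackr1 -1.51 (0.0665), and the Cx3cl1 call ended too (0.0931). Without visceral control replicate 5 Cxcl13 was the only one of the 9 still called, and without subcutaneous control replicate 1 it had -1.78 (0.0509). Leaving out visceral control replicate 3 ended Ackr1, Ccl7, Ccl9 and Cx3cl1 (adjusted p up to 0.083), replicate 4 ended Ackr1, Ccl9, Ccl24 and Cx3cl1 (up to 0.0888), and replicate 2 ended Cxcl14 (0.0564). Leaving out subcutaneous control replicate 4 ended Ackr1, Ackr2 and Cxcl14 (up to 0.0724), and replicates 1, 3 and 5 each ended Cx3cl1 (up to 0.0898).

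On the Western diet the depots gave 0 calls among the 30 genes with edgeR (2.08% of all genes), with 10 at an unadjusted p under 0.05 and 7 called by DESeq2. Over all 17788 genes, 3594 had an unadjusted p under 0.05 and DESeq2 called 1632. The count of 370 over all genes ranged from 101 without visceral Western replicate 3 to 1299 without visceral Western replicate 2. The smallest p belonged to Cxcl14 at -1.98 ± 0.561 (adjusted p = 0.0523) and Ackr3 at 1.05 ± 0.309 (adjusted p = 0.0621). Ccr2 alone showed a called difference between depots in its response to the Western diet, 2.38 ± 0.669 (adjusted p = 0.0495), where 2.23% of all genes were called. That share, 396 genes, ranged from 132 genes without visceral Western replicate 3 to 1169 without visceral control replicate 1. It went from 4.12 to 37.4 CPM in visceral and from 7.70 to 13.3 CPM in subcutaneous fat by group means. That call ended without 16 of the 20 libraries (adjusted p up to 0.104) and had 1.65 with an adjusted p of 0.263 without the libraries rich in male tract transcripts. The 16 were all 5 subcutaneous control libraries, subcutaneous Western replicates 2 to 5, visceral control replicates 3 to 5 and visceral Western replicates 1, 3, 4 and 5. For Ccl2 and the other genes called in 1 depot or both, Ccr2 apart, a difference between depots in the diet response was tested with edgeR and not called. Ccl2 had 2.29 ± 1.06 (adjusted p = 0.214), Ccl7 3.305 ± 0.967 (0.0581), Cxcl16 1.273 ± 0.373 (0.0583) and Ccl9 2.591 ± 0.775 (0.0629). Of the 30 genes 23 lay above 0 and 7 below, with a median of 1.32 against -0.192 over all genes. An unadjusted p under 0.05 was reached by 17 of the 30 and 3685 of all genes, and DESeq2 called 9 and 1377.

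In liver 13 of the 35 genes were tested, none of them a signalling receptor. The Western diet called 4, of which Ccl2, Cxcl14 and Cxcl16 rose and Ccl9 fell, where 8.44% of all 12991 genes were called. Ccl9 measured 75.1, 66.5, 54.4, 73.0 and 71.2 CPM on the control diet and 38.9, 29.5, 30.2, 39.4 and 39.4 CPM on the Western diet. With NaKtide, Ccl9 measured 46.9, 47.3, 58.3, 39.1 and 44.5 CPM on the control diet and 40.4, 43.8, 43.0, 41.3 and 44.3 CPM on the Western diet. Every Western library was below every control library, as in 3.24% of all genes. Ccl9 fell by 0.94 ± 0.129 (adjusted p = 9.3e-05) on the Western diet (log2 ± SE) and stayed called under all 17 alternatives run. Cxcl14 measured 0.713, 1.05, 2.53, 3.25 and 1.76 CPM on the control diet and 7.99, 2.80, 3.42, 26.9 and 5.24 CPM on the Western diet. With NaKtide, Cxcl14 measured 1.83, 3.65, 1.90, 2.03 and 2.94 CPM on the control diet and 3.98, 4.49, 5.64, 5.35 and 5.04 CPM on the Western diet. Western replicate 4 stood far above the rest, and the groups overlapped. Cxcl14, a constitutive epithelial and stromal ligand, rose by 2.34 ± 0.526 (adjusted p = 0.00776) and was called without each single library, with a log2 fold change of 1.402 without Western replicate 4 and at most 2.66 otherwise. In a fit of these 2 groups alone only 1 of the 35 genes, Ccl9, was called, and Cxcl14 was not.

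Cxcl16 measured 6.65, 6.82, 6.96, 10.2 and 6.45 CPM on the control diet and 25.2, 13.5, 7.20, 12.7 and 17.5 CPM on the Western diet. With NaKtide, Cxcl16 measured 10.3, 13.4, 5.38, 12.0 and 15.0 CPM on the control diet and 21.1, 23.3, 27.7, 26.5 and 38.8 CPM on the Western diet. Cxcl16, the ligand of Cxcr6, rose by 1.03 ± 0.29 (adjusted p = 0.0284) on the Western diet; the call ended without control replicate 1 (adjusted p = 0.0632), 2 (0.0604), 3 (0.0523) or 5 (0.0712) or Western replicate 1 (0.0966) or 5 (0.0579). Ccl2 measured 1.19, 0.350, 0, 0 and 0.391 CPM on the control diet and 4.93, 0.659, 1.44, 2.71 and 1.17 CPM on the Western diet. With NaKtide, Ccl2 measured 0.422, 1.22, 0.158, 0.956 and 0 CPM on the control diet and 1.92, 1.37, 2.15, 2.68 and 4.78 CPM on the Western diet. These were few counts, and the control and Western groups overlapped. Ccl2 rose by 2.41 ± 0.741 (adjusted p = 0.0464), and the call ended without control replicates 2 to 5 each (0.0812 to 0.0989) or Western replicate 1 (0.14), 3 (0.0578) or 4 (0.0758). Without muscle-rich control replicates 2 and 4, Ccl9 had -0.92 (adjusted p = 0.00198) and Cxcl14 2.50 (0.0367), and Ccl2 (0.2) and Cxcl16 (0.0603) were not called.

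**Figure D5:**
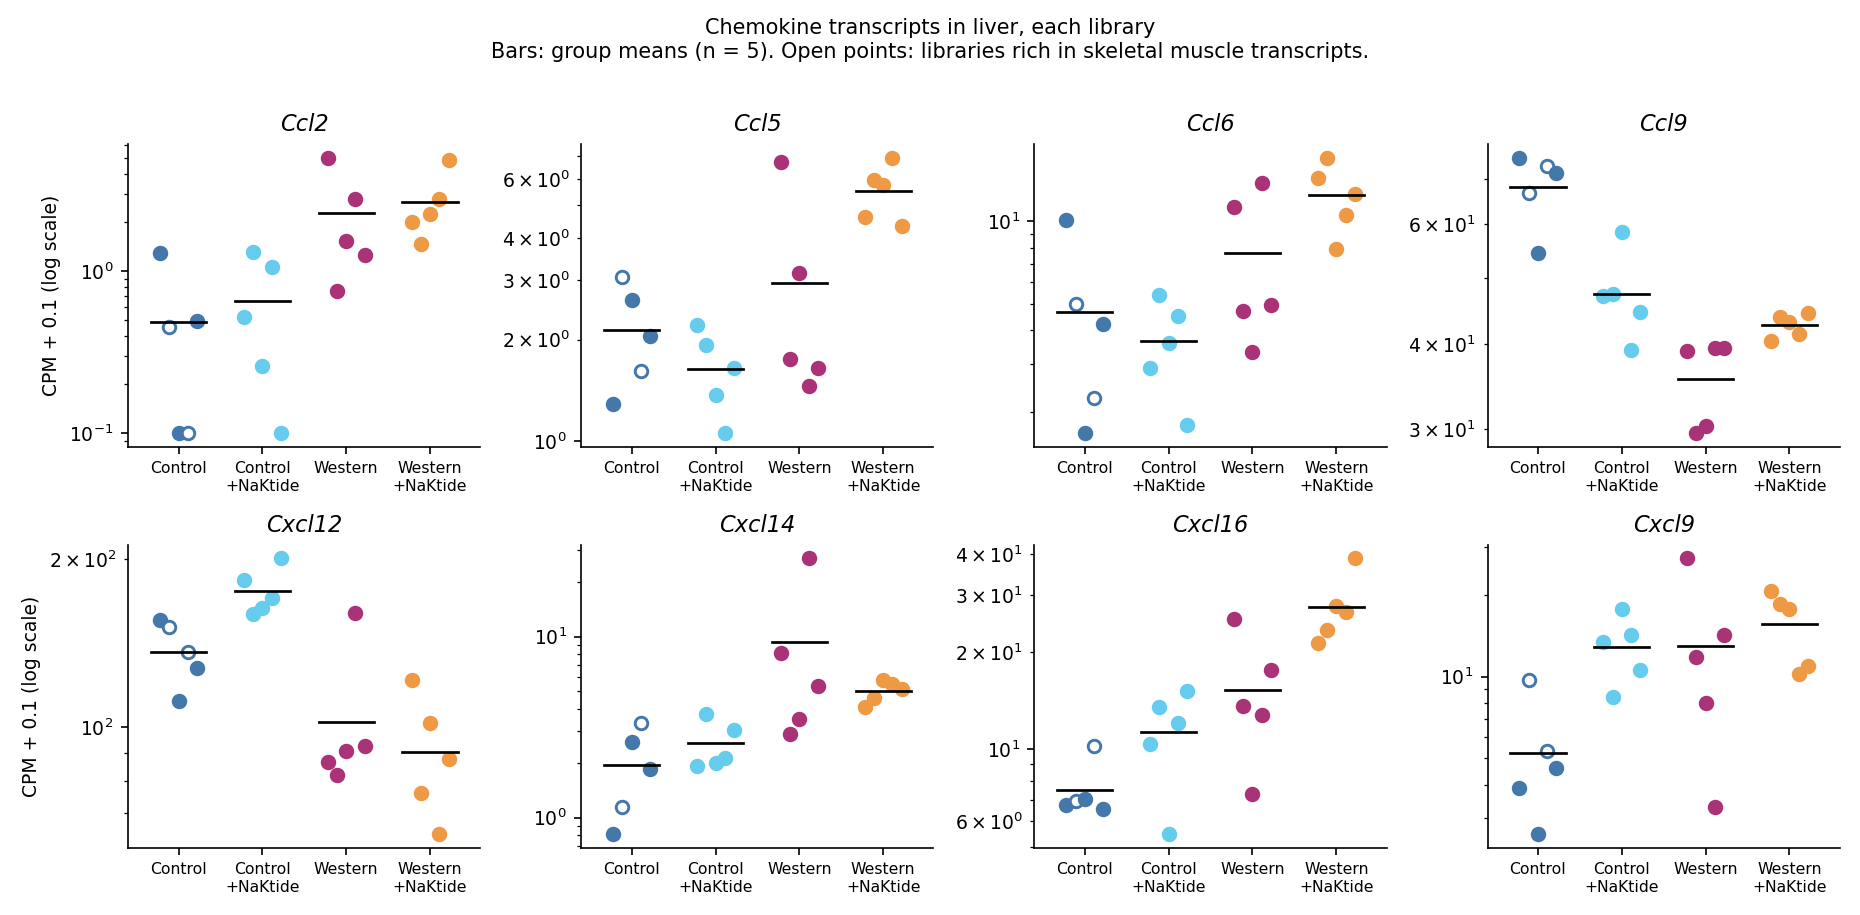
CPM + 0.1 (log axis) of 8 chemokines in each of the 20 liver libraries, with bars at group means (n = 5) and open points for control replicates 2 and 4, rich in muscle transcripts. Ccl9 lies at 54.4 to 75.1 CPM on the control diet and 29.5 to 39.4 CPM on the Western diet, and Cxcl16 at 21.1 to 38.8 CPM with both Western diet and NaKtide.

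NaKtide on the control diet called 1 of the 13 in liver, Ccl9, which fell by 0.53 ± 0.127 (adjusted p = 0.0368), where 1.55% of all genes were called and 0.408% were called lower. Over all genes the count of 201 ranged from 59 without control diet with NaKtide replicate 4 to 402 without replicate 2 of that group. The call ended without control replicate 1 (adjusted p = 0.0989), 2 (0.0558), 4 (0.0787) or 5 (0.0807) or control diet with NaKtide replicate 1 (0.0714), 4 (0.149) or 5 (0.118). NaKtide on the Western diet called 0 with edgeR (4.79% of all genes), with 2 of the 13 at an unadjusted p under 0.05 and 1 called by DESeq2. Of all 12991 genes, 3203 had an unadjusted p under 0.05 and DESeq2 called 1068. Over all genes the count of 622 ranged from 224 without Western replicate 3 to 2281 without Western diet with NaKtide replicate 1. The smallest p belonged to Cxcl16 at 0.84 ± 0.27 (adjusted p = 0.0709) and Ccl5 at 0.91 ± 0.359 (adjusted p = 0.129). The interaction called Ccl9 alone, at 0.79 ± 0.181 (adjusted p = 0.0206) (5% of all genes), and ended without Western replicate 3 (0.0514). Over all genes the interaction count of 649 ranged from 192 without Western diet with NaKtide replicate 4 to 2738 without replicate 1 of that group. Without Western replicate 1 and Western diet with NaKtide replicate 1, left out after seeing the data, NaKtide on the Western diet called Ccl5 at 1.57 ± 0.326 (adjusted p = 0.0021) and Cxcl16 at 1.19 ± 0.269 (adjusted p = 0.0037), and the Western diet called only Ccl9 and Cxcl14.

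Under NaKtide the Western diet called 5 of the 13 liver genes, 4 higher and 1 lower, where 24.5% of all genes were called. That count of 3189 genes ranged from 1704 without Western diet with NaKtide replicate 4 to 4695 without replicate 1 of that group. Ccl5 measured 1.19, 2.97, 2.53, 1.52 and 1.96 CPM on the control diet and 6.63, 1.65, 3.06, 1.35 and 1.55 CPM on the Western diet. With NaKtide, Ccl5 measured 2.11, 1.83, 1.27, 0.956 and 1.55 CPM on the control diet and 4.53, 5.86, 5.64, 6.84 and 4.25 CPM on the Western diet. No control diet library with NaKtide reached the Western range under NaKtide, and 5 of the 13 genes separated upward (7.11% of all genes) and 1 downward (6.21%). Ccl5, which recruits T cells, rose by 1.81 ± 0.379 (adjusted p = 0.00275), and Ccl6 rose by 1.82 ± 0.42 (adjusted p = 0.00508). Ccl6 measured 9.98, 4.90, 1.58, 2.17 and 4.11 CPM on the control diet and 11.2, 4.61, 3.24, 13.7 and 4.85 CPM on the Western diet. With NaKtide, Ccl6 measured 2.82, 5.28, 3.48, 4.42 and 1.70 CPM on the control diet and 14.3, 17.0, 7.79, 10.4 and 12.5 CPM on the Western diet. Cxcl16 rose by 1.29 ± 0.273 (adjusted p = 0.00293). Ccl2 rose by 2.16 ± 0.66 (adjusted p = 0.0233), a call that ended without control diet with NaKtide replicate 1 (adjusted p = 0.0518), 3 (0.0514) or 5 (0.0555) or Western diet with NaKtide replicate 5 (0.0732). Cxcl12 measured 156, 151, 111, 136 and 128 CPM on the control diet and 86.3, 82.0, 90.5, 159.7 and 92.2 CPM on the Western diet. With NaKtide, Cxcl12 measured 183, 159, 163, 170.2 and 200.4 CPM on the control diet and 121, 76.2, 102, 64.2 and 87.6 CPM on the Western diet. Cxcl12, which in liver comes largely from stromal and endothelial cells, fell by 0.96 ± 0.184 (adjusted p = 0.00149), with no overlap under NaKtide. Ccl5, Ccl6, Cxcl12 and Cxcl16 kept this call under all 17 alternatives run.

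Macrophage markers in liver summed to 51.2 to 113 CPM on the control diet, 70.5 to 154 with NaKtide added, 88.5 to 173 on the Western diet and 208 to 266 on the Western diet with NaKtide; 5 of the 6 were called higher for the Western diet under NaKtide and 1 of the 6 for the Western diet without it. Lipid-associated macrophage markers summed to 19.9 to 33.2, 17.6 to 37.9, 47.3 to 135 and 99.4 to 321 CPM in that order, and adipocyte markers to 1.37 to 11.9, 2.69 to 77.3, 3.72 to 134 and 118 to 218 CPM, with Adipoq, Plin1, Lep and Retn at 0 on the control diet. The adipocyte sum on the control diet was thus Cidec alone, and the sums of the other groups were not split by gene. Of all genes 24.5% were called for the Western diet under NaKtide and 8.44% for it without NaKtide. The link of these lists to the chemokine values was not tested. Of the working partners, Cx3cr1 at 2.74 ± 0.718 (adjusted p = 0.0198) and Ccrl2 at 2.21 ± 0.52 (adjusted p = 0.0102) rose with the Western diet. Of the 4 lists 0 of 3 ligands, 2 of 3 receptors, 0 of 15 signalling genes and 0 of 12 inducers were called (8.44% of all genes). With NaKtide on the Western diet 2 of 15 signalling genes and 1 of 12 inducers rose, where 4.79% of all genes were called. They were Irf8 by 1.38 ± 0.244 (adjusted p = 0.00301), Rac2 by 1.21 ± 0.246 (0.00711) and Vav1 by 1.26 ± 0.342 (0.0371). The 22 liver genes under the filter, all signalling receptors among them, had group means of at most 2.95 CPM, reached by Ccr2 on the Western diet with NaKtide. The other tested genes, Ccl24, Ccl25, Cxcl1, Cxcl9, Cxcl10 and Ackr2, were called in no liver contrast. Among them Cxcl9 averaged 5.13 ± 2.697 CPM on the control diet and 12.8 ± 9.03 on the Western diet, at 1.27 ± 0.413 (adjusted p = 0.0588). Cxcl1 reached 43.9 CPM in control replicate 1 and 44.7 CPM in Western replicate 4 with no other library above 14.6 CPM.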

How the data were processed

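Poly(A) RNA was sequenced from 60 libraries with a stranded kit. Reads were trimmed with Trimmomatic 0.38 and aligned with HISAT2 2.1.0 to GRCm38, and DESeq2 1.20.0 was used, per the submitters' processing notes; for the counting program, its strand setting and the annotation, details were not given in the sources used here. The authors deposited raw counts per Ensembl gene, which were the values tested. The deposited normalized counts, a signal scaled per library, were used only as a check: each library's ratio to its raw counts was constant in 60 of 60 libraries. The deposited FPKM values were used only to compare levels between genes.

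Symbols and coordinates came from the GENCODE M21 annotation of GRCm38. Counts were tested with edgeR 4.0.16 in R 4.3.3: TMM scaling, filterByExpr by group and the quasi-likelihood test, with p-values adjusted by Benjamini-Hochberg over all genes of a fit and called under 0.05. A fit held the 4 groups of a tissue, or all 40 fat libraries for the depots. SE is the log2 fold change over the square root of F. CPM are TMM-scaled and differ slightly between fits. Alternatives were other scaling, no low-count filter, DESeq2 1.42.0, a replicate block, only the 2 groups compared, each library left out, and sets of libraries left out after seeing the data. The scripts were tested on simulated data. No library differed from another of its group by as little as counting noise. Across scalings the median of all genes moved by at most 0.0671 on the log2 scale. Promoter sequences are from RefSeq.

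The members and lists were chosen with earlier results of these data known. Named are members called in a contrast, the 2 with the smallest p where none was called, and at most 4 called genes of the other lists per contrast. The counts of the other receptors in visceral fat are not reported here.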

Additional observations from a re-analysis of the deposited data

Results flagged for a closer look

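In 7 of 95 sets of 5 libraries, 1 library lay far from the other 4 by Dixon's criterion, where chance alone gives about 1 in 20. In visceral fat Ccl9 was 1.21 CPM in control replicate 5 against 21.6 to 47.8 in the other control libraries, Ccl4 was 0.582 CPM in control replicate 4 against 0.134 to 0.238, and Ccl19 was 4.76 CPM in Western replicate 2 against 2.17 to 2.4. In subcutaneous fat of the control diet Ackr3 was 13.2 CPM in replicate 3 against 19.1 to 21.4, Ccl9 was 190 CPM in replicate 2 against 24.5 to 44.5, and Cxcl14 was 104 CPM in replicate 4 against 58.0 to 66.3. In liver Cxcl16 was 10.2 CPM in control replicate 4 against 6.45 to 6.96.

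The difference between libraries with and without NaKtide depended on diet, by the interaction term of edgeR's fit (log2 scale, adjusted p under the threshold). In visceral fat it was -8.54 for Ccl2, -8.13 for Ccl7, -4.95 for Ccr2, -4.57 for Cxcl1, -4.46 for Ccl9, -4.41 for Cxcl10, -4.30 for Ccl8, -4.29 for Ccl19 and -4.21 for Ccl4. It was -3.73 for Ccl6, -3.13 for Cxcr3, -3.07 for Ackr1, -3.05 for Ackr3, -3.01 for Ccl5, -3.01 for Ccr1, -2.93 for Ccl22, -2.01 for Cxcl12 and -1.96 for Cxcl16, and 1.33 for Ccl25. In liver it was 0.79 for Ccl9. The interaction calls of Cxcl12 and Ackr1 in visceral fat and of Ccl9 in liver each ended without some single library. Only the NaKtide groups are labelled with doxycycline, so NaKtide and the drug cannot be told apart here. Visceral libraries rich in male tract transcripts were spread unevenly over the groups, and without them Cxcl12 lost its interaction call. The response of Ccr2 to the Western diet differed between the fat depots by 2.38 in edgeR's fit (adjusted p = 0.0495). That call ended with no low-count filter, with the replicate block, without the male tract libraries and without some single libraries.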

How the results depend on the processing

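Of 1669 values of the 88 called single-gene results under alternatives, 1446 kept the call, 223 lost it and 0 changed direction; the cause of the losses was not tested. In visceral fat the 17 genes called for the Western diet, the 12 for NaKtide on it and the 19 for the interaction came to within 1.5 times of those counts under every alternative run, with 15 to 21, 9 to 12 and 17 to 22 leaving out 1 library each. NaKtide on the control diet (11) had 17 with DESeq2 and 7 to 16 leaving out 1 library. The Western diet under NaKtide (5) had 2 with no low-count filter, 9 with DESeq2, 3 with the replicate block, 8 with only the 2 groups compared, 11 without the libraries rich in male tract genes and 2 to 5 leaving out 1 library. In subcutaneous fat the Western diet (3) had 5 with only the 2 groups compared, 1 without the libraries rich in B cell genes, 5 without those rich in mesothelium genes and 2 to 4 leaving out 1 library. NaKtide on the Western diet (0) had 1 with DESeq2 and 1 with only the 2 groups compared, and the Western diet under NaKtide (0) had 5 with DESeq2 and 0 to 3 leaving out 1 library. In liver the Western diet (4) had 1 with only the 2 groups compared, 2 without Western replicate 1 and its NaKtide counterpart and 2 to 5 leaving out 1 library. NaKtide on the Western diet (0) had 1 with DESeq2, 2 without that pair and 0 to 2 leaving out 1 library. NaKtide on the control diet (1) had 0 with no filter, with the replicate block, with only the 2 groups compared and without the muscle-rich libraries, and 0 to 1 leaving out 1 library. The interaction (1) had 0 with no filter, 0 with the replicate block, 3 without the pair and 0 to 2 leaving out 1 library. The Western diet under NaKtide (5) had 7 with no filter and 4 to 6 leaving out 1 library. Between depots the control diet (9) had 0 with only the 2 groups compared, 0 without the male tract libraries and 1 to 12 leaving out 1 library. The Western diet (0) had 1 with RLE scaling, 7 with DESeq2, 11 with only the 2 groups compared, 5 without the male tract libraries and 0 to 3 leaving out 1 library. The depot difference in the diet response (1) had 0 with no filter, 9 with DESeq2, 0 with the replicate block, 0 without the male tract libraries and 0 to 6 leaving out 1 library.

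Counts over all genes that moved by over 1.5 times, other than by leaving out 1 library, are given as the count reported against that of each alternative. In visceral fat the Western diet (4287) had 1936 with no filter, 2671 with the replicate block and 2114 with only the 2 groups compared. NaKtide on it (2270) had 985 with no filter, 4602 with DESeq2 and 3555 without the libraries rich in male tract genes. NaKtide on the control diet (1233) had 655, 2919 and 2288 in that order and 712 with only the 2 groups, and the Western diet under NaKtide (830) had 361, 1663 and 2434. In subcutaneous fat the Western diet (854) had 561 with no filter, 1727 with DESeq2, 2104 with only the 2 groups, 119 without the libraries rich in B cell genes and 2357 without those rich in mesothelium genes. The contrasts with 0 had with DESeq2 194 for NaKtide on the Western diet, 1194 for the Western diet under NaKtide and 48 for the interaction; the first also had 158 with only the 2 groups and 4 without the mesothelium-rich libraries, and the second 2 with no filter. In liver the Western diet (1097) had 693 with only the 2 groups and 656 without the muscle-rich libraries. NaKtide on the Western diet (622) had 1068 with DESeq2, 360 with the block, 321 with only the 2 groups and 3577 without Western replicate 1 and its NaKtide counterpart. NaKtide on the control diet (201) had 308 with no filter, 420 with DESeq2, 62 with the block, 124 with only the 2 groups, 83 without the muscle-rich libraries and 347 without that pair. The Western diet under NaKtide (3189) had 4802 without that pair. The interaction (649) had 1499 with DESeq2, 155 with the block, 364 without the muscle-rich libraries and 3678 without that pair. Between depots the control diet (4842) had 310 with only the 2 groups and 3 without the libraries rich in male tract genes. The Western diet (370) had 124 with no filter, 1632 with DESeq2, 2425 with only the 2 groups and 1348 without those libraries, and the depot difference in the diet effect (396) had 204 with no filter, 1377 with DESeq2 and 1 without those libraries.

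Replicate numbers did not pair the libraries as a whole: 25 of 90 same-number pairs had deviations correlated over 0.1 (-0.707 to 0.783), all pairs did so in 1 of 18 comparisons, and 9 of 90 libraries correlated best with their own number. That 1 comparison was visceral control diet with NaKtide against visceral Western diet. Its 5 same-number correlations were 0.315 to 0.783, and 2 libraries there correlated best with their own number. With the replicate block the members called were 3, 0, 0, 5 and 0 in liver, 3, 0, 0, 0 and 0 in subcutaneous fat, 17, 13, 11, 3 and 19 in visceral fat (Western diet, NaKtide on the Western diet, NaKtide on the control diet, Western diet under NaKtide, interaction) and 10, 0 and 0 between depots. At 3.18 to 9.78 M counts per library, genes near 1 CPM rest on a few counts each.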
